A study of Mus musculus with 9 samples.

Results

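DNA replication and G1/S genes are the genes whose products license replication origins, unwind and copy DNA, supply deoxynucleotides, rebuild chromatin behind the fork and switch a cell from G1 into S phase. The list followed here holds 49 genes in 12 roles, chosen by name, and 48 of them have values in at least 1 of the 3 deposited tables, which together list 8742 genes. Of the 49, 47 have values in all 9 libraries. Rfc2 has values in PN and WT organoids only, and the RNA of Rpa3 is not analysed here. The study sequenced RNA from mouse esophageal organoids, 3-dimensional cultures labelled as epithelial cells, collected at day 7 after seeding and given no treatment. The genotype label of PCN organoids is a triple knockout of Trp53, Cdkn2a and Notch1 (3 libraries), that of PN organoids a knockout of Trp53 with Notch1 (3 libraries), and that of WT organoids wild type (3 libraries). Both edited groups therefore carry the Trp53 and Notch1 edits, and PCN carries the Cdkn2a edit in addition. The labels do not say how the edits were made, whether each edited line is 1 clone, or whether replicates stem from different cultures or mice. The spread behind every p-value is thus that of these 9 libraries and may be technical.

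In a dividing cell the origin recognition complex, Cdc6 and Cdt1 load the MCM ring onto origins in G1, and Cdc45 and GINS turn that ring into the active helicase at the start of S phase. Cyclin E with its kinase phosphorylates the RB family, which releases E2F factors, and E2F in turn drives transcription of much of this gene set. The p53 target Cdkn1a (p21) and the INK4 inhibitors restrain the cyclin-dependent kinases upstream. In the esophagus, division is a property of the basal layer, and cells that leave it stop copying DNA and make the keratins Krt4 and Krt13.

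Library totals, recovered from the deposited counts and FPKM (fragments scaled for gene length and library size), were 17422590 to 20198041 in PCN, 16857744 to 18912526 in PN and 14695420 to 15093994 in WT. Trp53 averaged 0.760 FPKM in PCN and 0.645 FPKM in PN organoids, against 29.7 FPKM in WT organoids. Notch1 averaged 5.01 FPKM in PCN and 10.4 FPKM in PN, against 17.2 FPKM in WT. Cdkn2a RNA was higher in the organoids labelled as its knockout, at 53.2, 53.8 and 59.9 FPKM in PCN, 19.0, 18.3 and 19.4 FPKM in PN, and 8.66, 8.83 and 5.54 FPKM in WT. An edit that leaves the transcript in place does not show in a gene-level count, so these values do not check the Cdkn2a label. Of 29 markers of other cells (leukocytes, fibroblasts, glia, muscle, endothelium) the endothelial gene Esam alone has values, at 1.79 FPKM in both PCN and PN and 3.22 FPKM in WT. Esam was called lower than WT in both, by a log2 fold change of -0.85 in PCN and -0.84 in PN, though its libraries overlapped between the groups. Only genes that the authors called have values, so a marker without them may still be expressed, and other cells are not excluded.

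Nearly the whole replication set was higher in edited organoids than in WT. Against WT, PCN organoids had 45 of the 49 members higher and 1 lower, where 17.5% of all 17300 genes tested were called higher and 19.0% lower. PN organoids had 46 of the 49 members higher and none lower than WT, where 17.6% of all 17165 genes tested were called higher and 18.8% lower. A call is an adjusted p under 0.05 in the quasi-likelihood test of edgeR, Benjamini-Hochberg adjusted over all genes tested. The deposited tables hold only genes that the authors had already called, so a member outside a table counts as not called and a listed one was selected on these same libraries. Among listed members the median log2 fold change was 0.75 for PCN against WT, with a range of -0.72 to 1.37, and 0.70 for PN against WT, with a range of 0.23 to 1.38. Over all genes fitted the medians were -0.28 and -0.26, and over all genes called higher they were 0.58 and 0.55. Both comparisons use the same 3 WT libraries.

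Summed over the 47 members with values everywhere, the replication set took 5611 to 5776 CPM (counts scaled to the library total) in PCN, 5228 to 5418 in PN and 3374 to 3566 in WT organoids. The edited libraries all lay above the WT libraries, at 1.65 times the WT mean in PCN and 1.55 times in PN. In bulk RNA, fewer cells of a type and less RNA per cell cannot be told apart, so these sums do not separate more cycling cells from more transcript in each. The keratins of cells that have left the basal layer were lower in both edited groups: Krt13 averaged 1533 FPKM in PCN and 1152.5 FPKM in PN, against 8718 FPKM in WT, and Krt4 averaged 1034 FPKM in PCN and 1172 FPKM in PN, against 5336 FPKM in WT. Of the basal genes, Krt15 (931 FPKM in PCN, 414 in PN, 170 in WT) and Trp63 (77.4 FPKM in PCN, 83.2 in PN, 57.9 in WT) were higher in both edited groups. Krt14 averaged 1384 FPKM in PCN, 1118 FPKM in PN and 1115 FPKM in WT and was called higher in PCN only, with a log2 difference of 0.01 in PN (95% interval -0.16 to 0.19), and Krt5 is in neither table against WT. Of the 8 epithelial markers, 3 were higher and 4 lower than WT in PCN, and 2 were higher and 3 lower in PN. Of all genes, 17.5% were called higher and 19.0% lower in PCN, and 17.6% and 18.8% in PN. The lower markers include 2 that are not keratins. Cdh1 averaged 94.5 FPKM in PCN and 103 FPKM in PN, against 178 FPKM in WT, and was called lower in both. Epcam averaged 141 FPKM in PCN, 178 FPKM in PN and 180 FPKM in WT, and was called lower in PCN only. The part of cell makeup in the replication values was not tested.

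**Figure D1:**
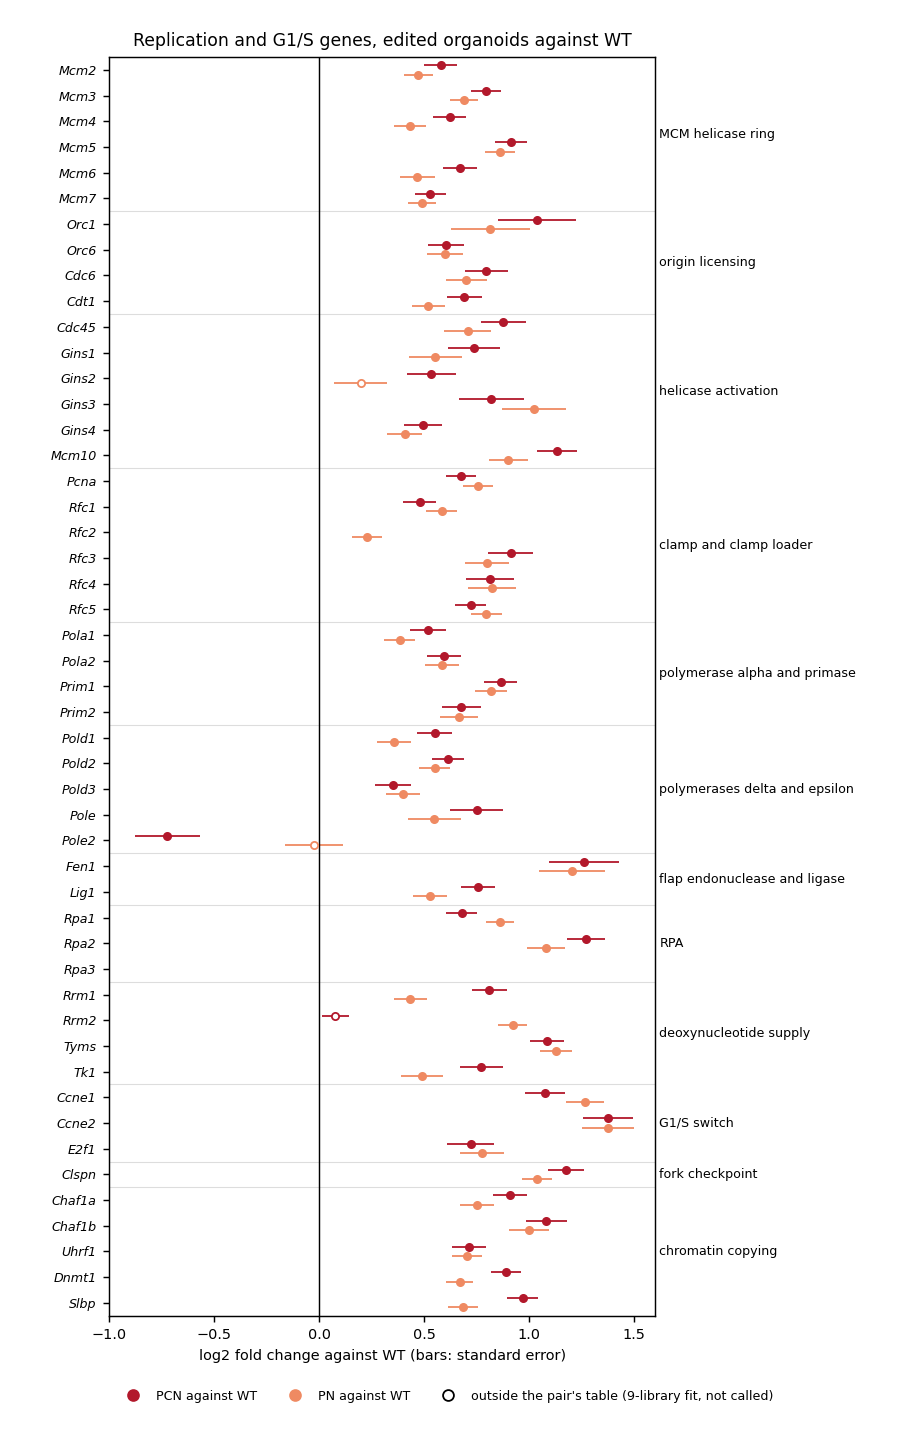
Log2 fold change (x axis) of each replication and G1/S gene (rows, grouped by role) in PCN (dark red, upper point) and PN (orange, lower point) against WT, with standard errors from 3 libraries a group; open points lie outside that pair's table and were not called. Called points lie right of 0, from Rfc2 at 0.23 to Ccne2 at 1.38, except Pole2 in PCN at -0.72; the open points lie between -0.02 and 0.20.

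The 3 G1/S switch genes were higher in both edited groups. Ccne2, a cyclin E gene at chromosome 4 that activates Cdk2 at the G1/S boundary, had 10.7, 11.99 and 10.3 FPKM in PCN, 10.8, 9.84 and 12.2 FPKM in PN, and 3.63, 4.46 and 4.68 FPKM in WT. Its paralog Ccne1 had 17.0, 18.1 and 19.2 FPKM in PCN, 21.5, 19.8 and 20.5 FPKM in PN, and 8.88, 7.92 and 9.06 FPKM in WT. For both cyclins every edited library lay above every WT library. The log2 fold changes of Ccne2 were 1.37 ± 0.12 for PCN and 1.38 ± 0.12 for PN against WT (SE), the largest of all members, and those of Ccne1 were 1.07 ± 0.10 and 1.27 ± 0.09. E2f1, a transcription factor of this programme and itself an E2F target, averaged 21.5 ± 1.9 FPKM in PCN, 22.2 ± 1.4 FPKM in PN and 13.1 ± 2.0 FPKM in WT (SD, n = 3 each), a rise of 0.72 ± 0.11 and 0.77 ± 0.11 on the log2 scale.

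**Figure D2:**
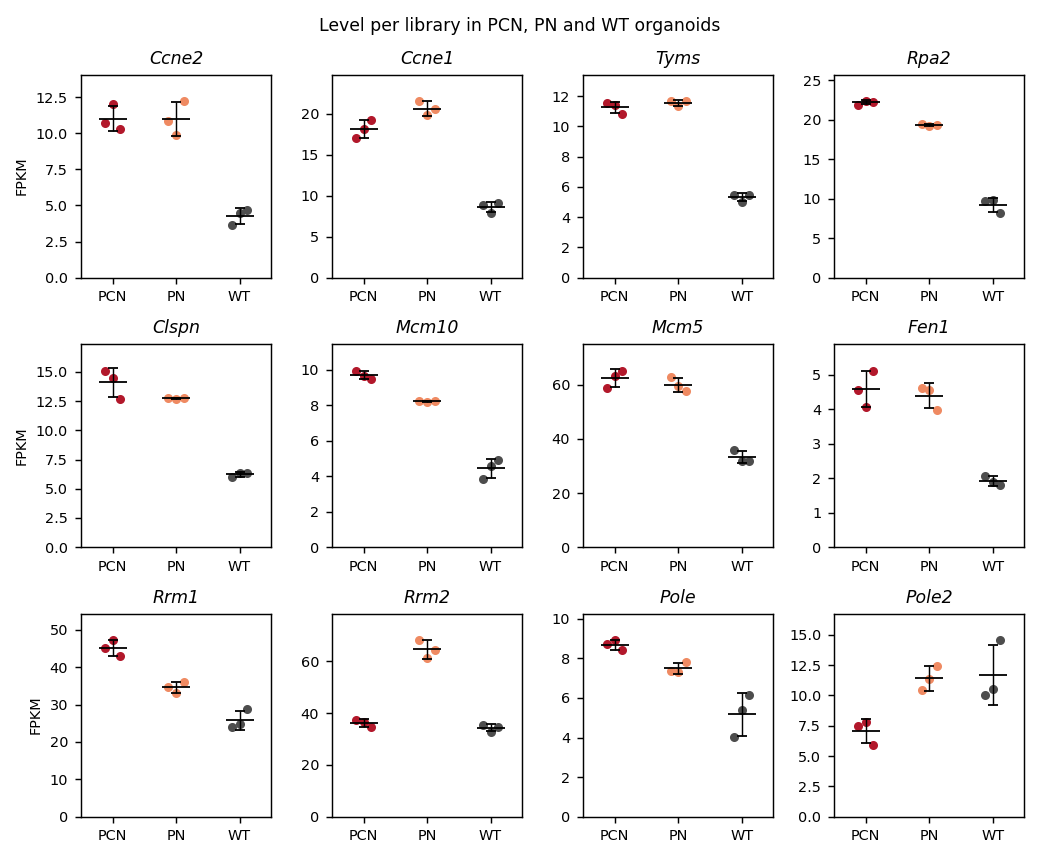
FPKM (y axis, from 0) of 12 members in each library of PCN (dark red), PN (orange) and WT (grey), left to right, with the mean (line) and SD (bars). Edited libraries lie above WT libraries in 10 panels; in the Rrm2 panel PN alone is high, and in the Pole2 panel PCN alone is low.

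E2F factors act through short DNA letters in promoters, and the promoters of the set were read for them. RefSeq start windows (250 bases before to 50 after the start, GRCm38.p6) were found for 41 members. Rpa3, whose RNA is not analysed here, is among the 41 and has no match. The letters searched, on both strands, were TTTCCCGC, TTTGGCGC, TTTCGCGC and TTTGCCGC. They occurred in 17 of the 41 members (41.5%), against 2.61% of all 27025 genes with a window and 3.29% of the protein-coding ones. More than 1 match was found in 6 members, against 0.107% of all genes. The cell-cycle element TTTGAA, known from genes of G2 and M phase, occurred in 6 of the 41 members (14.6%), against 20.2% of all genes. These letters were chosen after the values were seen, and a match is a description of the sequence, not a bound site. The 180 bases before the start are printed for the licensing genes Orc1 and Cdc6 and the helicase genes Mcm5 and Mcm6, which hold matches there, and for Rrm2 and Pole2, the 2 members whose values in PCN are described separately, which hold none there. In all, 24 of the 41 members have no match in the whole window, among them Ccne1, E2f1, Pcna, Tyms and Rpa2, which were higher in both edited groups. The E2f1 window, chr2:154569377-154569676 on the minus strand, lies wholly inside the gene by the deposited coordinates. In these E2f1 starts further upstream, at 154569892, so the bases before that start were not read. Capitals mark the matches.
Mcm6, chr1:128359706-128359885, minus strand: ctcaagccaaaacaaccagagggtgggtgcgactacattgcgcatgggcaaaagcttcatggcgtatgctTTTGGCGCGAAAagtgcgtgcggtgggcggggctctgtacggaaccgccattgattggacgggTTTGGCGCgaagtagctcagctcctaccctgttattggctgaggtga
Mcm5, chr8:75109329-75109508, plus strand: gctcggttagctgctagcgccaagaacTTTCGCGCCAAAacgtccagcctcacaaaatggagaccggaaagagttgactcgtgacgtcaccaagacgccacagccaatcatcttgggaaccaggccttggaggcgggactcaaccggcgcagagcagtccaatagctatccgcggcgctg
Orc1, chr4:108579274-108579453, plus strand: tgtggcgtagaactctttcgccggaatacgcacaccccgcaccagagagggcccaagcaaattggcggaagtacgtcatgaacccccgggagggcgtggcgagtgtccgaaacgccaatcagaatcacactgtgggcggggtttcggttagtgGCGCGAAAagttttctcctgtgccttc
Cdc6, chr11:98907971-98908150, plus strand: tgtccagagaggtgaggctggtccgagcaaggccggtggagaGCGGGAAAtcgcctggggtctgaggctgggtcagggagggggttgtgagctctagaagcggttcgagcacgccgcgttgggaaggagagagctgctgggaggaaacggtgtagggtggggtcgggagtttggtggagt
Rrm2, chr12:24708074-24708253, plus strand: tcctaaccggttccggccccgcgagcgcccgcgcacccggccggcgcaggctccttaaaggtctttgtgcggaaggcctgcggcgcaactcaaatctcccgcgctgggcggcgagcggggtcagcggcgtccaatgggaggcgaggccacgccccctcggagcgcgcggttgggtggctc
Pole2, chr12:69228191-69228370, minus strand: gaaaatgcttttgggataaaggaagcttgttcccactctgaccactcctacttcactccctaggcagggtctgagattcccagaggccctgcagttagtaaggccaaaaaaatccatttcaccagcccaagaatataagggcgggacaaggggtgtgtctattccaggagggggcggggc

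In the Mcm6 window the matches begin 110, 106 and 47 bases before the start, the first pair overlapping, and in the Mcm5 window an overlapping pair begins 153 and 149 bases before it. The Orc1 match begins 27 bases and the Cdc6 match 138 bases before the RefSeq start. In the deposited coordinates both genes start further upstream, Orc1 at 108579423 and Cdc6 at 98907801. By those coordinates the Orc1 match and the whole printed Cdc6 window lie inside the gene. Pole2 has 1 match after its start, outside the printed window.

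The licensing factors rose together. Orc1, the ATPase subunit of the origin recognition complex, had 3.67, 3.40 and 3.20 FPKM in PCN, 2.83, 3.06 and 2.87 FPKM in PN, and 1.75, 2.07 and 1.20 FPKM in WT. It is the least abundant member per length, with 63 to 106 raw counts in WT libraries, and its log2 fold changes were 1.04 ± 0.19 for PCN and 0.82 ± 0.19 for PN against WT. Cdc6, which loads the MCM ring with Cdt1, had 8.46, 7.57 and 7.80 FPKM in PCN, 7.54, 7.44 and 7.23 FPKM in PN, and 4.16, 4.57 and 5.03 FPKM in WT. The groups did not overlap for either gene, and Cdc6 was higher by 0.80 ± 0.10 in PCN and 0.70 ± 0.10 in PN on the log2 scale. Cdt1 and Orc6, the other licensing members, were higher by 0.69 and 0.60 in PCN and by 0.52 and 0.60 in PN on the log2 scale, but the Cdt1 gene overlaps another annotated gene, and the counting method is not given in the sources used here.

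All 6 subunits of the MCM2-7 ring, the core of the replicative helicase, were higher in both edited groups. Mcm5 had 58.9, 63.3 and 65.2 FPKM in PCN, 62.7, 59.4 and 57.6 FPKM in PN, and 35.9, 31.9 and 31.99 FPKM in WT. Mcm3 had 68.4, 71.6 and 69.5 FPKM in PCN, 66.2, 62.6 and 65.1 FPKM in PN, and 39.7, 39.2 and 42.3 FPKM in WT. These were the largest changes in the ring, at 0.91 ± 0.08 and 0.79 ± 0.07 for PCN and 0.86 ± 0.07 and 0.69 ± 0.07 for PN on the log2 scale, and Mcm2, Mcm4, Mcm6 and Mcm7 lay between 0.43 and 0.67. Mcm2 was the least abundant ring subunit per length in every group, at 8.63% of the summed ring FPKM in PCN, 8.71% in PN and 9.35% in WT. Mcm5 took 18.1% ± 0.59 of the ring in PCN and 18.9% ± 0.75 in PN, against 15.6% ± 1.5 in WT (SD, n = 3 each).

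Among the factors that activate the ring, the largest change against WT was that of Mcm10, a fork protein needed for unwinding, in PCN and that of Gins3 in PN. Mcm10 had 9.96, 9.67 and 9.48 FPKM in PCN, 8.24, 8.18 and 8.23 FPKM in PN, and 3.85, 4.57 and 4.89 FPKM in WT, with no overlap between any groups. Gins3, a subunit of the GINS complex, had 5.70, 6.14 and 6.05 FPKM in PCN, 6.37, 6.52 and 7.55 FPKM in PN, and 2.79, 4.14 and 3.23 FPKM in WT. The log2 fold changes for PCN and PN against WT were 1.13 ± 0.09 and 0.90 ± 0.09 for Mcm10, and 0.82 ± 0.15 and 1.02 ± 0.15 for Gins3. Cdc45, the helicase partner of GINS, was higher by 0.88 ± 0.11 and 0.71 ± 0.11, and Gins1 and Gins4 were also higher in both groups. Gins2 had 5.37, 5.76 and 6.03 FPKM in PCN, 4.72, 5.07 and 3.74 FPKM in PN, and 4.39, 3.75 and 3.74 FPKM in WT. It was called higher in PCN against WT, at 0.53 ± 0.12, while in PN its libraries overlapped those of WT, with a log2 difference of 0.20 (95% interval -0.07 to 0.46). Gins2 overlaps other genes on the opposite strand, which an unstranded count cannot separate. Per length, Gins4 made up 55.8% of the summed GINS FPKM in PCN, 56.4% in PN and 59.4% in WT.

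The sliding clamp Pcna was the most abundant member in all groups, at 134 ± 1.1 FPKM in PCN, 141 ± 7.6 FPKM in PN and 84.1 ± 4.9 FPKM in WT (SD, n = 3 each). Pcna has annotated pseudogenes, and reads could be split with them. Among the loader subunits that place the clamp, Rfc3 had 9.995, 10.2 and 10.8 FPKM in PCN, 9.73, 9.30 and 9.50 FPKM in PN, and 5.60, 4.86 and 6.05 FPKM in WT. Rfc4 had 21.6, 22.8 and 22.9 FPKM in PCN, 22.2, 21.6 and 23.6 FPKM in PN, and 12.6, 11.1 and 14.7 FPKM in WT. Their log2 fold changes were 0.91 ± 0.11 and 0.81 ± 0.11 for PCN, and 0.80 ± 0.10 and 0.82 ± 0.11 for PN. Rfc1 and Rfc5 rose as well. Rfc2 had 14.6, 13.3 and 14.2 FPKM in PN, against 11.7, 12.1 and 12.4 FPKM in WT, the smallest called change of the set against WT at 0.23 ± 0.07 (edgeR's quasi-likelihood test, Benjamini-Hochberg adjusted p = 0.023). That call was lost without PN replicate 1 or 3 or WT replicate 1 or 2.

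Primase, which starts each new strand, rose with its polymerase. Prim1 had 17.5, 17.5 and 17.5 FPKM in PCN, 17.1, 16.3 and 17.1 FPKM in PN, and 9.96, 9.11 and 9.81 FPKM in WT. Prim2, its large subunit, had 7.66, 7.42 and 7.14 FPKM in PCN, 7.14, 7.27 and 7.56 FPKM in PN, and 4.34, 4.55 and 5.04 FPKM in WT. Both edited groups lay wholly above WT, with log2 fold changes of 0.86 ± 0.08 and 0.68 ± 0.09 in PCN, and 0.82 ± 0.08 and 0.67 ± 0.09 in PN. The DNA polymerase alpha subunits Pola1 and Pola2 were higher by 0.52 and 0.60 in PCN and by 0.38 and 0.59 in PN. Of the polymerases that extend the strands, the delta subunits Pold1, Pold2 and Pold3 were higher by 0.35 to 0.61 in PCN and by 0.36 to 0.55 in PN. Pole, the catalytic subunit of the leading-strand polymerase epsilon, had 8.71, 8.92 and 8.40 FPKM in PCN, 7.38, 7.31 and 7.83 FPKM in PN, and 4.01, 5.38 and 6.13 FPKM in WT, with log2 fold changes of 0.75 ± 0.13 in PCN and 0.55 ± 0.13 in PN.

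Fen1, which trims the flaps between Okazaki fragments, had 4.56, 4.08 and 5.12 FPKM in PCN, 4.63, 4.57 and 3.97 FPKM in PN, and 2.07, 1.88 and 1.81 FPKM in WT, a log2 fold change of 1.26 ± 0.17 and 1.20 ± 0.16. Its WT libraries held 66 to 75 raw counts, and it overlaps other genes on the opposite strand, which an unstranded count cannot separate. Lig1, the ligase that seals the fragments, had 36.7, 36.4 and 37.0 FPKM in PCN, 32.7, 30.5 and 30.3 FPKM in PN, and 22.7, 23.1 and 19.5 FPKM in WT. The groups did not overlap for Lig1, and it was higher than WT by 0.76 ± 0.08 in PCN and 0.53 ± 0.08 in PN on the log2 scale. The single-strand binding protein RPA showed unequal subunits. Rpa2 had 21.9, 22.3 and 22.3 FPKM in PCN, 19.5, 19.2 and 19.3 FPKM in PN, and 9.66, 9.80 and 8.15 FPKM in WT. Rpa1 had 34.6, 34.5 and 35.1 FPKM in PCN, 40.1, 38.6 and 39.0 FPKM in PN, and 21.4, 20.7 and 23.2 FPKM in WT. Against WT, Rpa2 was higher by 1.27 ± 0.09 in PCN and 1.08 ± 0.09 in PN, and Rpa1 by 0.68 ± 0.07 in PCN and 0.86 ± 0.07 in PN.

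Of the nucleotide enzymes, Tyms (thymidylate synthase) had 11.5, 11.4 and 10.8 FPKM in PCN, 11.7, 11.3 and 11.7 FPKM in PN, and 5.45, 5.03 and 5.49 FPKM in WT. Tyms also has an annotated pseudogene. Its log2 fold changes were 1.08 ± 0.08 in PCN and 1.13 ± 0.08 in PN. Tk1, the thymidine salvage kinase, had 36.5, 35.4 and 38.1 FPKM in PCN, 29.9, 30.8 and 29.3 FPKM in PN, and 24.1, 22.9 and 17.6 FPKM in WT, and was higher by 0.77 ± 0.10 in PCN and 0.49 ± 0.10 in PN on the log2 scale. The fork checkpoint adaptor Clspn (claspin), which helps ATR activate Chk1, had 15.1, 14.5 and 12.7 FPKM in PCN, 12.8, 12.7 and 12.7 FPKM in PN, and 6.005, 6.36 and 6.39 FPKM in WT. Claspin was higher than WT by 1.18 ± 0.09 in PCN and 1.04 ± 0.07 in PN on the log2 scale.

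The genes that rebuild chromatin behind the fork were all higher in both groups. Chaf1b, a subunit of the histone chaperone CAF-1, had 11.4, 12.03 and 11.1 FPKM in PCN, 11.1, 10.5 and 10.9 FPKM in PN, and 5.38, 6.06 and 4.93 FPKM in WT. Chaf1a, the largest CAF-1 subunit, had 11.1, 12.1 and 11.8 FPKM in PCN, 10.7, 10.7 and 9.85 FPKM in PN, and 6.74, 5.98 and 6.01 FPKM in WT. Their log2 fold changes were 1.08 ± 0.10 and 0.91 ± 0.08 in PCN, and 1.00 ± 0.09 and 0.75 ± 0.08 in PN. Slbp, which binds the stem-loop of histone mRNAs, had 16.7, 16.3 and 16.3 FPKM in PCN, 13.8, 13.7 and 12.9 FPKM in PN, and 8.20, 8.68 and 8.41 FPKM in WT, and was higher by 0.97 ± 0.07 in PCN and 0.68 ± 0.07 in PN on the log2 scale. The maintenance methyltransferase Dnmt1 was higher by 0.89 ± 0.07 and 0.67 ± 0.06, and its recruiter Uhrf1 by 0.71 ± 0.08 and 0.70 ± 0.07.

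Between the edited groups the set changed little, apart from Rrm2 and Pole2. PCN against PN called 13 of the 49 members higher and 3 lower, where 12.3% of 14758 genes tested were called higher and 11.5% lower. The 13 higher make up 26.5% of the members. In a fit of all 9 libraries together 5 members were called higher in place of 13, with Cdt1, Gins2, Mcm10, Mcm4, Mcm6, Pold1, Pole and Rpa2 no longer passing. The listed changes were small, with a median log2 fold change of 0.21 over the 16 listed members, and 33 members were outside that table. Rrm1, the large subunit of ribonucleotide reductase, had the largest rise: 45.2, 47.2 and 43.0 FPKM in PCN, against 34.8, 33.1 and 36.0 FPKM in PN (log2 fold change 0.38 ± 0.05; edgeR's quasi-likelihood test, Benjamini-Hochberg adjusted p = 8.4e-08). It had 23.9, 24.7 and 28.8 FPKM in WT. Gins2 (0.34), Slbp (0.29), Tk1 (0.29), Mcm10 (0.24), Lig1 (0.24) and Dnmt1 (0.23) followed on the log2 scale. The Gins2 call was lost without PN replicate 3, and the Cdt1 call (0.18) without PCN replicate 2 or 3 or PN replicate 1 or 2. Rpa1 fell by 0.18 ± 0.04.

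For the members outside the PCN against PN table the 9-library fit gives a value and an interval, not a call. Ccne2 differed by -0.004 (95% interval -0.23 to 0.22), E2f1 by -0.05 (-0.26 to 0.15), Mcm5 by 0.05 (-0.09 to 0.19) and Pcna by -0.08 (-0.21 to 0.05) on the log2 scale. The interval of Ccne1, -0.36 to -0.03, lay below 0, and that of Chaf1a, 0.01 to 0.30, above it. Orc1 had the widest interval, -0.11 to 0.55.

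**Figure D3:**
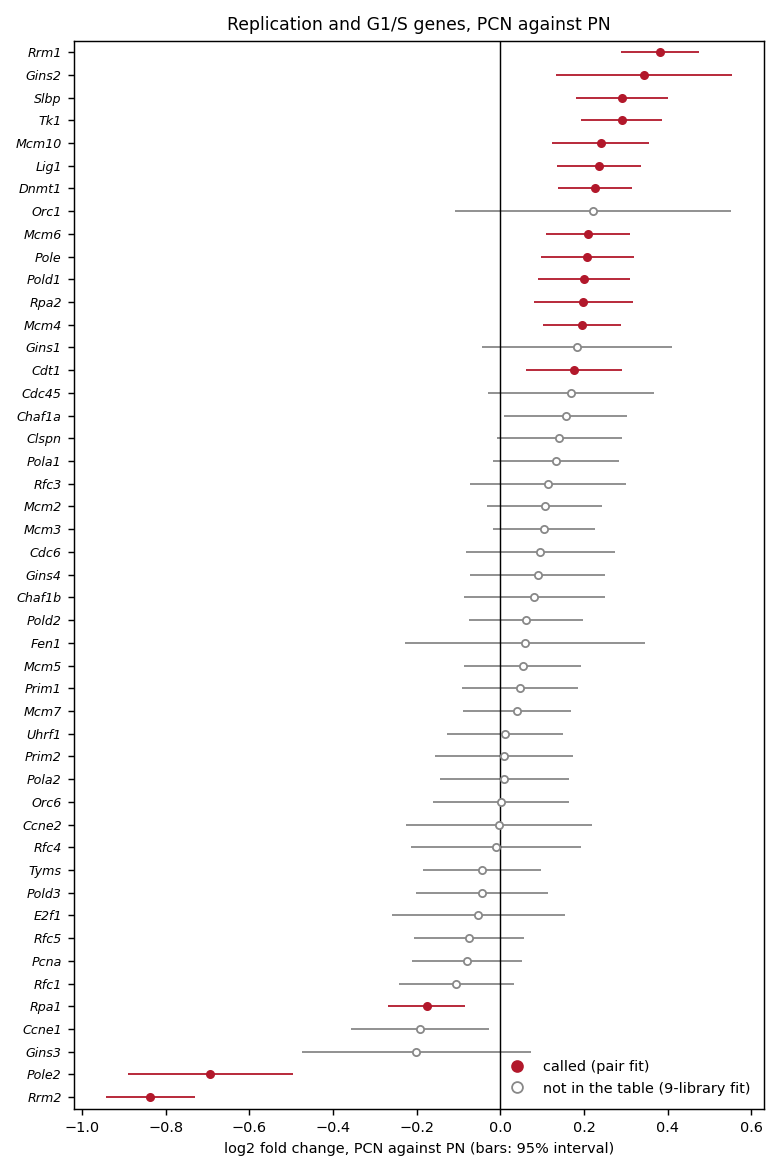
Log2 fold change of PCN against PN (x axis, bars are 95% intervals) for 47 members, sorted. Filled red points are the 16 called members from the fit of that pair; open grey points lie outside its table and come from the fit of all 9 libraries. Rrm2 at -0.84 and Pole2 at -0.69 stand apart from the others, which lie between -0.20 and 0.38.

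Rrm2, the small subunit of ribonucleotide reductase (ENSMUSG00000020649, GRCm38 chr12:24708241-24714146, plus strand), had 37.2, 36.6 and 34.6 FPKM in PCN, 68.2, 61.2 and 64.3 FPKM in PN, and 35.6, 32.8 and 34.7 FPKM in WT. PN libraries stood apart, and PCN libraries overlapped those of WT. Rrm2 was lower in PCN than in PN by a log2 fold change of -0.84 ± 0.05 (edgeR's quasi-likelihood test, Benjamini-Hochberg adjusted p = 1.3e-13), and higher in PN than in WT by 0.92 ± 0.07. Against WT, PCN differed by 0.08 (95% interval -0.06 to 0.22) and was not called.

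Pole2, the second subunit of polymerase epsilon (ENSMUSG00000020974, GRCm38 chr12:69201773-69228195, minus strand), was the only member called lower than WT. It had 7.46, 7.83 and 5.93 FPKM in PCN, 10.4, 11.4 and 12.4 FPKM in PN, and 10.04, 10.5 and 14.6 FPKM in WT. PCN libraries lay below all others, at log2 fold changes of -0.69 ± 0.10 against PN and -0.72 ± 0.15 against WT (edgeR's quasi-likelihood test, Benjamini-Hochberg adjusted p = 2e-06 and 0.0021). PN and WT overlapped, with a difference of -0.02 (95% interval -0.32 to 0.27). Pole2 overlaps another gene on the same strand, so its level is uncertain.

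Both genes thus parted from their partners in PCN, and the Pole2 to Pole ratio was lower than WT in PN as well. The ratio of Rrm2 to Rrm1 FPKM was 0.801 ± 0.025 in PCN, 1.86 ± 0.086 in PN and 1.34 ± 0.14 in WT, and the ratio of Pole2 to Pole was 0.813 ± 0.094 in PCN, 1.52 ± 0.094 in PN and 2.28 ± 0.29 in WT (SD, n = 3 each). For both ratios no library of 1 group overlapped another group. Chaf1b to Chaf1a, by contrast, was 0.986 ± 0.043 in PCN, 1.04 ± 0.069 in PN and 0.877 ± 0.12 in WT, and Rfc4 to Rfc5 was 1.07 ± 0.056, 1.02 ± 0.062 and 1.00 ± 0.15 in the same groups. Rpa2 to Rpa1 was 0.638 ± 0.0079 in PCN, 0.492 ± 0.0057 in PN and 0.425 ± 0.065 in WT. For that ratio, too, no library of 1 group overlapped another group. Mcm5 to Mcm2 also differed, at 2.09 ± 0.037 in PCN, 2.17 ± 0.086 in PN and 1.67 ± 0.18 in WT, with WT libraries below all edited ones.

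**Figure D4:**
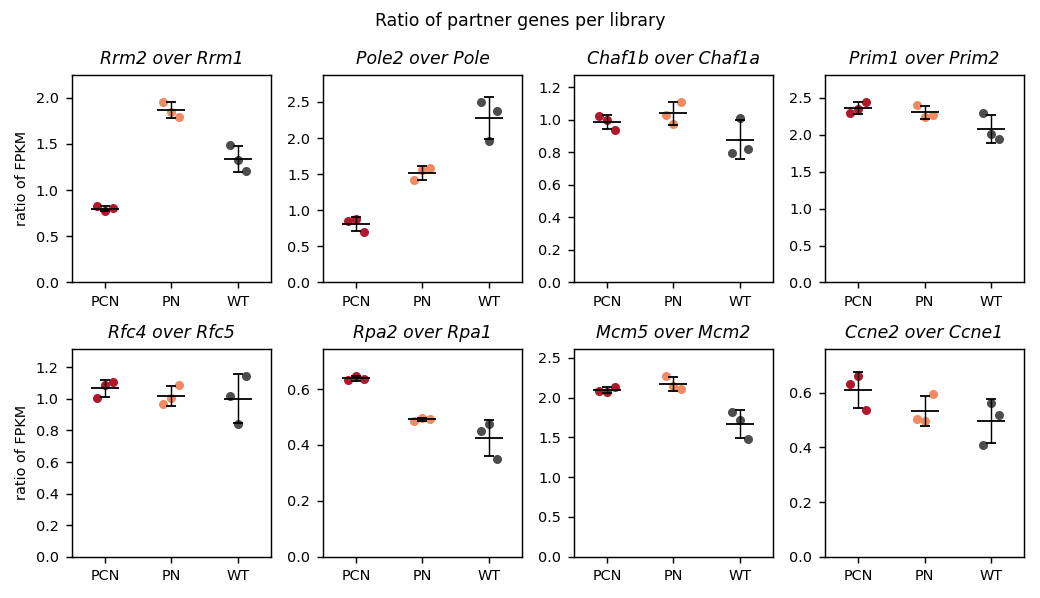
Ratio of FPKM between 2 partner genes (y axis, from 0) in each library of PCN, PN and WT, left to right, with the mean (line) and SD (bars). Rrm2 over Rrm1 and Pole2 over Pole are lowest in PCN, near 0.801 and 0.813, and Chaf1b over Chaf1a and Rfc4 over Rfc5 lie between 0.877 and 1.07 in group means. Rpa2 over Rpa1 is highest in PCN, near 0.638, and its groups do not overlap.

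Rrm2 and Pole2 are the members on chromosome 12 before 95 megabases, a limit chosen with earlier results of these data known. Of the genes there that were called in PCN against PN, 263 were lower and 5 higher (98.1% lower), with a median log2 fold change of -0.92 and quartiles of -1.07 and -0.78. In PCN against WT, 273 were lower and 3 higher, with a median of -1.04. Pole2 was at -0.72 in that comparison, but Rrm2 was at 0.08 and not called. In PN against WT, 96 were lower and 57 higher, with a median of -0.49. Rrm2 was at 0.92 there and Pole2, not called, at -0.02. On the chromosomes other than 12 and 14, 49.2% of the called genes were lower in PCN against PN. Without the members on chromosomes 12 and 14, the counts over the other 46 members were 45 higher and none lower in both comparisons with WT, and 13 higher and 1 lower in PCN against PN. The part of chromosome position in the Rrm2 and Pole2 values was not tested.

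On chromosome 14, 259 of the genes called in PN against WT were lower (93.8%), and 322 of those called in PCN against PN were higher (98.5%). The set has no member there, but related genes are: Rb1, which encodes the RB protein that restrains E2F, averaged 10.2 ± 0.68 FPKM in PCN, 6.97 ± 0.65 FPKM in PN and 12.4 ± 2.1 FPKM in WT (SD, n = 3 each), and Wdhd1, a fork protein that tethers polymerase alpha, averaged 6.95 ± 0.45 FPKM in PCN, 4.25 ± 0.23 FPKM in PN and 3.67 ± 0.17 FPKM in WT.

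**Figure D5:**
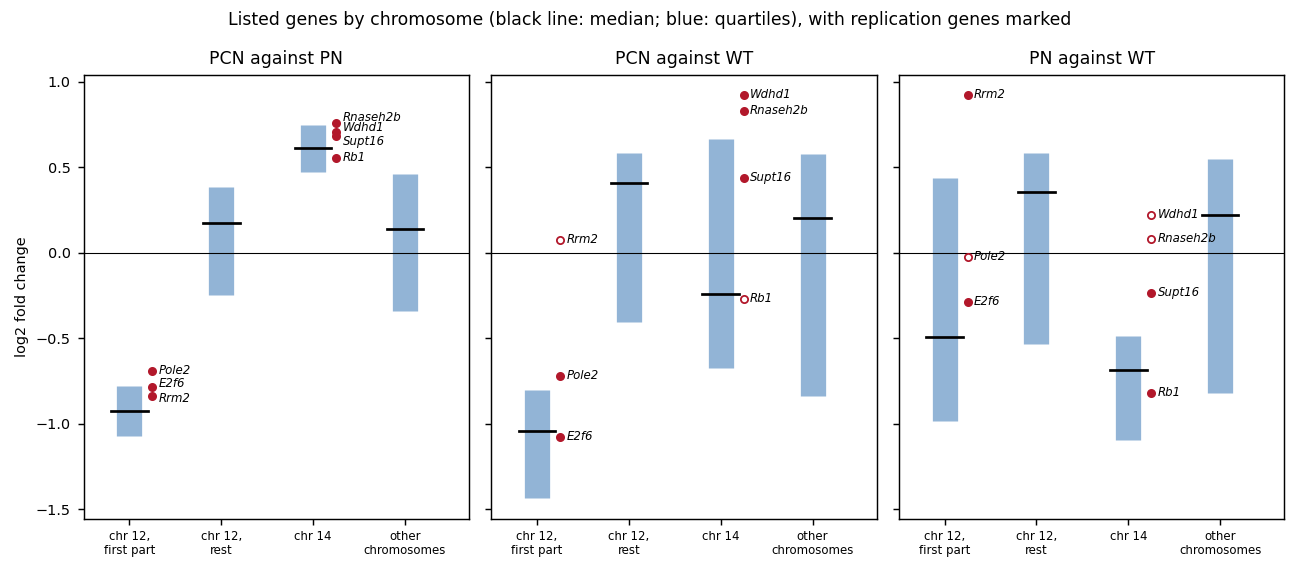
Log2 fold change (y axis) of the listed genes in the first part of chromosome 12, its rest, chromosome 14 and all other chromosomes, as median (black line) and quartiles (blue), for the 3 comparisons, with replication genes as red points (open where outside that table). In PCN against PN, Rrm2 (-0.837), E2f6 (-0.785) and Pole2 (-0.693) lie above the median of -0.92 of the first part of chromosome 12. Pole2 is also above the upper quartile there, -0.781. Chromosome 14 has a median of 0.61, with Rb1 at 0.553, Supt16 at 0.680 and Wdhd1 at 0.708. Rnaseh2b, at 0.758, is above the upper quartile of 0.745.

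Of 22 further cyclin, CDK, RB and E2F genes, 13 were higher and 5 lower in PCN against WT, and 12 higher and 4 lower in PN against WT. The higher ones make up 59.1% and 54.5% of the list, against 17.5% and 17.6% of all genes, and the lower ones 22.7% and 18.2%, close to the 19.0% and 18.8% of all genes. E2f2, an activating E2F, averaged 4.35 ± 0.30 FPKM in PCN, 4.09 ± 0.16 FPKM in PN and 1.45 ± 0.22 FPKM in WT, and Mybl2, a cell-cycle transcription factor and E2F target, 14.1 ± 0.96, 14.2 ± 0.74 and 5.54 ± 0.058 FPKM in the same groups (SD, n = 3 each). E2f6, a repressive E2F on chromosome 12 before 95 megabases, averaged 4.33 ± 0.53 FPKM in PCN, 7.45 ± 0.45 FPKM in PN and 9.16 ± 0.63 FPKM in WT. Of the D cyclins, which start RB phosphorylation, Ccnd2 was lower than WT by a log2 fold change of -0.69 ± 0.07 in PCN and -0.20 ± 0.06 in PN, and Ccnd1 by -0.44 ± 0.07 in PCN.

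Of 7 CDK inhibitors, 2 were higher and 3 lower in both PCN and PN against WT, or 28.6% and 42.9% of this short list, where 17.5% and 19.0% of all genes were called higher and lower in PCN and 17.6% and 18.8% in PN. Cdkn1a (p21), a direct p53 target, had 9.99, 9.82 and 9.25 FPKM in PCN, 7.28, 8.02 and 6.59 FPKM in PN, and 55.2, 52.6 and 49.3 FPKM in WT. Cdkn2b (p15) had 10.04, 12.8 and 12.1 FPKM in PCN, 14.6, 13.4 and 13.7 FPKM in PN, and 39.5, 37.5 and 37.9 FPKM in WT. Both lay far below every WT library, with log2 fold changes of -2.43 ± 0.08 and -1.72 ± 0.11 in PCN and -2.83 ± 0.09 and -1.45 ± 0.09 in PN. Cdkn1b (p27) was also lower, by -0.39 ± 0.08 and -0.48 ± 0.08. Cdkn2a was higher by 2.86 ± 0.15 in the organoids labelled PCN and 1.31 ± 0.16 in PN, and Cdkn2c (p18) by 0.54 ± 0.12 and 0.77 ± 0.11.

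In the other replication lists, except the histones, 53.3% to 81.8% of the genes were called higher in PCN or PN against WT, where 17.5% and 17.6% of all genes were, and none to 12.5% lower, where 19.0% and 18.8% of all genes were. Of 15 origin and firing factors, 12 were higher and none lower in each edited group against WT, led by Recql4 (4.46 ± 0.53 FPKM in PCN, 3.72 ± 0.26 in PN and 1.48 ± 0.12 in WT), with Ticrr and the origin kinase Cdc7. Of 15 other fork factors, 11 were higher and 1 lower in PCN, and 8 higher and 1 lower in PN, against WT. The lower one was Pold4, the smallest subunit of polymerase delta, at 34.6 ± 1.1 FPKM in PCN and 39.9 ± 2.9 FPKM in PN, against 149 ± 32 FPKM in WT. Pold4 thus parted from Pold1, Pold2 and Pold3, with a log2 fold change of -2.11 ± 0.15 in PCN and -1.89 ± 0.15 in PN. The nuclease Dna2 and the clamp unloader Atad5 were higher in both. Of 16 further nucleotide genes, 11 were higher and 1 lower in PCN, and 12 higher and 2 lower in PN, with Umps, which makes uridine monophosphate, at 15.7 ± 0.35 FPKM in PCN, 12.8 ± 0.46 in PN and 7.65 ± 0.24 in WT, and Shmt1 also higher. Of 11 further chromatin genes, 9 were higher and none lower in PCN, and 7 higher and 1 lower in PN, with the histone chaperones Asf1b and Nasp among the higher ones. Of 10 replication-dependent histone genes with values, 1 was higher and 1 lower in PCN, and 5 were higher and none lower in PN. The low-count filter removed 2 of the 10 in PCN against WT. Since this list holds only genes with values, its shares, 10% each way in PCN, cannot be set against those of all genes. Hist1h4i averaged 13.7 ± 2.8 FPKM in PCN, 16.2 ± 1.4 FPKM in PN and 7.75 ± 1.4 FPKM in WT (SD, n = 3 each); histone genes are near-identical copies that lack a poly(A) tail, so their levels are uncertain.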

How the data were processed

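RNA of 9 libraries was measured. CASAVA, DESeq and GRCm38 (mm10) are named in the submitters' processing notes; for aligner, counter and annotation the sources used here give nothing. The authors deposited 1 table for each pair, limited to genes they had called. These give raw counts, normalized counts (a signal: the count divided by a size factor, as the deposited values show), FPKM, log2 fold changes and p-values, per the file headers. Library totals, size factors and the number of genes tested were recovered from the deposited values. Each whole table was fitted in R 4.3.3 by edgeR 4.0.16 (filterByExpr, quasi-likelihood, threshold 0.05), adjusting over the recovered number. DESeq2 1.42.0, other scalings, no filter, a replicate block, all libraries in 1 fit and leaving out each library were the alternatives. The fit was tested on simulated data. Promoters are RefSeq's. Of 48 members, 47 have the coordinates of GENCODE M21 and 26 overlap another gene.

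The members and lists were chosen with earlier results of these data known. Named genes were the 2 largest changes per role, the 8 largest called in PCN against PN, members not higher against WT, the 3 largest of each other list, targeted genes and CDK inhibitors; others are named by role or position, and 1 gene that the rule names is not reported here. Same-numbered PN and WT libraries deviated together (correlations 0.166, 0.113 and 0.182), which the rule used reads as pairing. However, the differently numbered WT replicate 1 and PCN replicate 3 correlated at 0.252, and the labels give the replicate number no meaning. All p-values printed here come from the fit without a replicate block.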

Additional observations from a re-analysis of the deposited data

How the results depend on the processing

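No result changed sign under any alternative run. With median-ratio factors over the listed genes, which shift all genes by 0.16 in PCN against WT, 0.13 in PN against WT and -0.06 in PCN against PN on the log2 scale, the median log2 fold change of listed members was 0.91 for PCN against WT, 0.83 for PN against WT and 0.15 for PCN against PN, and Cdt1, Pold1 and Rpa2 lost their call in PCN against PN. With TMM over the listed genes Cdt1 lost it. With all 9 libraries in 1 fit, 5 members were higher in PCN against PN. The median there was 0.089 over the 47 members that fit covers and 0.20 over the 16 listed ones, so its fall follows from the wider set of members. Leaving out 1 library gave 45 to 45 members higher and 1 lower in PCN against WT (median 0.72 to 0.78), 45 to 46 higher in PN against WT (median 0.67 to 0.71), and 12 to 13 higher and 3 lower in PCN against PN (median 0.19 to 0.22). The replicate block gave 45 higher and 1 lower, 46 higher, and 13 higher and 3 lower, and changed no member call; same-numbered libraries of PCN and WT (-0.155, -0.113 and -0.266) and of PCN and PN (-0.080, -0.111 and -0.150) did not deviate together. The tables hold only genes already called, so no member outside them could be called here, and Orc1 and Fen1, under 110 counts in each WT library, are the least precise members.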
